A study of Mus musculus with 18 samples.

Results

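The regions described here carried a BMAL1 peak in mouse liver and in mouse kidney and none in heart. They were chosen by merging the peak lists of the 3 tissues wherever peaks overlapped by at least 1 bp and keeping each merged region with a liver and a kidney peak but no heart peak. This gave 960 of 9005 regions. Each of the 960 regions was made of exactly 1 liver and 1 kidney peak, so they held 19.9% of the 4813 liver peaks and 23.8% of the 4034 kidney peaks. The heart list held 2519 peaks.

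Binding was measured by chromatin immunoprecipitation with sequencing (ChIP-seq) in wild-type C57BL/6 mice aged 3 to 6 months, entrained to cycles of 12 h light and 12 h darkness and fed freely. Liver, kidney and heart came from the same animals, with 3 mice per tissue, and were collected 6 h after lights on. Each tissue had 3 ChIP libraries, made with a chicken antibody to the N-terminal domain of mouse BMAL1, and 3 input libraries. The lists pool the libraries of a tissue, so no value below has an error between animals, read depth is unknown, and all intervals and tests take regions as their units. In whole tissue, weaker binding per cell and binding in fewer cells cannot be told apart. For the 3 heart inputs, 1 label (the source) reads kidney where the title and the tissue read heart. The part of this mismatch in the heart list, and so in which regions lack a heart peak, was not tested.

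BMAL1 forms a heterodimer with CLOCK, and the dimer binds E-boxes, of which the palindrome CACGTG is the classical form. It drives the transcription of clock repressors and of many output genes, and in rodents its DNA binding in liver is strongest around the middle of the light phase. Liver and kidney are both epithelial organs that make glucose, break down amino acids and clear drugs and metabolites, with hepatocytes and proximal tubule cells as the main cell types for these tasks.

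Sequence could be read where the centre of a region lay in a RefSeq promoter window, which spans 250 bases before to 50 bases after a gene start (build GRCm38.p6). This was the case for 239 of the 960 regions (24.9%). Windows of the best-ranked regions, by the mean of a region's ranks in both lists, are shown first because they carry the E-boxes of the strongest sites. The 250 bases before the start are printed 5′ to 3′ on the strand of the gene, with each CACGTG in capitals. The window at 1700001L05Rik (chr15:83367298-83367547, minus strand) belonged to the best-ranked region of all. Those at Hdgf (chr3:87906071-87906320, plus strand), a secreted growth factor, at Dvl2 (chr11:70000342-70000591, plus strand), a Wnt signalling adaptor, and at Crebrf (chr17:26715400-26715649, plus strand), a regulator of the CREB3 factor, came next. The window at Ttc7 (chr17:87282636-87282885, plus strand) was the first in this order without CACGTG.
1700001L05Rik: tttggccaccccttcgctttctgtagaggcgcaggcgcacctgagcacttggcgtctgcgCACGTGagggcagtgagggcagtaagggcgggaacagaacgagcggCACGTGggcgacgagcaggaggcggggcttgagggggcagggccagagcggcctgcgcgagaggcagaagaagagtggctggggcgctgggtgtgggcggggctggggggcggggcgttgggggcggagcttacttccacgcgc
Hdgf: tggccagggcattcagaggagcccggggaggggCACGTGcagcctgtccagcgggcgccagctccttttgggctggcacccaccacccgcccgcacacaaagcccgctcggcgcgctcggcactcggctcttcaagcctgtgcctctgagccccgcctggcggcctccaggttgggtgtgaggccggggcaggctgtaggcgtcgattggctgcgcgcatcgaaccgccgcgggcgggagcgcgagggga
Dvl2: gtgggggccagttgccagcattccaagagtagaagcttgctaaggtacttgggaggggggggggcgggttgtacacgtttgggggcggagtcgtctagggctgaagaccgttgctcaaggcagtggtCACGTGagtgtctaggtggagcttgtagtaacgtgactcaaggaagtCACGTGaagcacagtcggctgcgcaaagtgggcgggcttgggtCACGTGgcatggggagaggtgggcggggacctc
Crebrf: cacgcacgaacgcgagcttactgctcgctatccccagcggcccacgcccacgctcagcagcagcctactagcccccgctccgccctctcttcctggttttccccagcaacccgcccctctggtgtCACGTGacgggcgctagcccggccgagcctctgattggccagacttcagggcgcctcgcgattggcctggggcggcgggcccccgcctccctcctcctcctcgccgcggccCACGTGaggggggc
Ttc7: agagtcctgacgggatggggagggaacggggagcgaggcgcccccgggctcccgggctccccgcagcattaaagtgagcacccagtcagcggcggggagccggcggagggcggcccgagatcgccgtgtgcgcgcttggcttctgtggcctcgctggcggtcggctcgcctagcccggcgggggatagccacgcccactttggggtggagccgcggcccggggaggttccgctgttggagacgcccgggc

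The window at Dvl2 held 3 copies of CACGTG, and those at 1700001L05Rik and Crebrf held 2 each. The nearest copy lay 11.5 bp from the region's centre at 1700001L05Rik, 10 bp at Hdgf, 14.5 bp at Dvl2 and 3 bp at Crebrf. Of the next windows in the order, the nearest copy was 45 bp from the centre at Tatdn2 and 17 bp at Atf7. At Snx8 it was 142 bp away, outside the peaks.

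Some genes of the metabolic and stress lists described further on also had regions whose windows held the word. Windows at other list genes, among them Txnip, Esrra, Lss, Abcc2 and Ppara, held no copy. The copy nearest to the region's centre is shown with 25 bases on each side for Hebp1, a heme-binding protein (chr6:135168243-135168298, minus strand), Ass1, argininosuccinate synthase of the urea cycle (chr2:31470209-31470264, plus strand), the insulin receptor substrates Irs2 (chr8:11008943-11008998, minus strand) and Irs1 (chr1:82291524-82291579, minus strand), the chaperone partner Dnajb9 (chr12:44210145-44210200, minus strand), the glycolytic regulator Pfkfb3 (chr2:11502113-11502168, minus strand) and Mlxipl, the glucose-sensing factor ChREBP (chr5:135089767-135089822, plus strand).
Hebp1: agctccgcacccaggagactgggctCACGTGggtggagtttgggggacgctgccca
Ass1: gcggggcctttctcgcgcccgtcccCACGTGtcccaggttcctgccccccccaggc
Irs2: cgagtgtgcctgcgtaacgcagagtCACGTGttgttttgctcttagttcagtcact
Irs1: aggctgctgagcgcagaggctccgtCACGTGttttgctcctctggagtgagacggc
Dnajb9: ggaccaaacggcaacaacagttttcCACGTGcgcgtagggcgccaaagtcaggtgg
Pfkfb3: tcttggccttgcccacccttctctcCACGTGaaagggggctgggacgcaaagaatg
Mlxipl: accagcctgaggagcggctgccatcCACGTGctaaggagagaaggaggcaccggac

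The excerpts were chosen for holding CACGTG, so these 6 bases are the same by construction. The copy lay 77 bp from the region's centre at Hebp1, 82.5 bp at Ass1 and 22 bp or less at the other genes shown. Flanking bases differed between genes, though Irs2 and Irs1 both read gtCACGTGtt. Of the 239 windows, 117 held CACGTG (49%, exact 95% interval 42.5 to 55.5%), against 7.15% of all 32851 RefSeq promoter windows. In 28 windows (11.7%) it occurred 2 or more times, with 4 copies at most, and 0.594% of all windows held that many. The windows at the liver-and-kidney-only regions had a median GC content of 66.3%, against 52.7% for all windows, and a median of 27 CpG pairs against 7. Median GC content was 66.7% in regions of all 3 tissues, 60.7% in liver-only and 66.3% in kidney-only regions, and its part in the motif shares was not tested. The window table held no gene of chromosome 18, where 18 of the 960 regions lay.

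Sequence was not used to choose the regions, so the share of windows with CACGTG was compared between classes of regions. It was 59.7% in regions with peaks in all 3 tissues (111 of 186), 10.7 percentage points above the liver-and-kidney-only regions (odds ratio 0.648 for the latter, two-sided Fisher's exact test, p adjusted over 3 comparisons 0.0311). It was 30.5% in liver-only regions (76 of 249) and 27.8% in kidney-only regions (123 of 442). The liver-and-kidney-only share exceeded these by 18.4 and 21.1 points (odds ratios 2.18 and 2.49, Fisher's exact adjusted p 6.54e-05 and 1.88e-07). Peak scores moved with these shares. Within 5 groups of like score the difference from liver-only regions was 9.95 points (exact adjusted p 0.0668) and that from regions in all 3 tissues -4.73 points (exact adjusted p 0.397), so neither passed the threshold, while kidney-only regions stayed 14 points lower (exact adjusted p 0.00397).

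The E-boxes gathered at the centres of the regions. Within 25 bp of the centre CACGTG occurred 6.82 times per kb of window in the liver-and-kidney-only regions (78 copies). The rate was 3.18 per kb at 25 to 50 bp, 2.13 at 50 to 75 bp and 0.448 at 75 to 100 bp. Over all RefSeq promoter windows it was 0.267 per kb. Of the 117 windows with the word, 94 (80.3%) had a copy within 50 bp of the centre, and the median distance was 16 bp. That distance was 16.3 bp in regions found in all 3 tissues, 19 bp in liver-only and 25 bp in kidney-only regions.

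**Figure D1:**
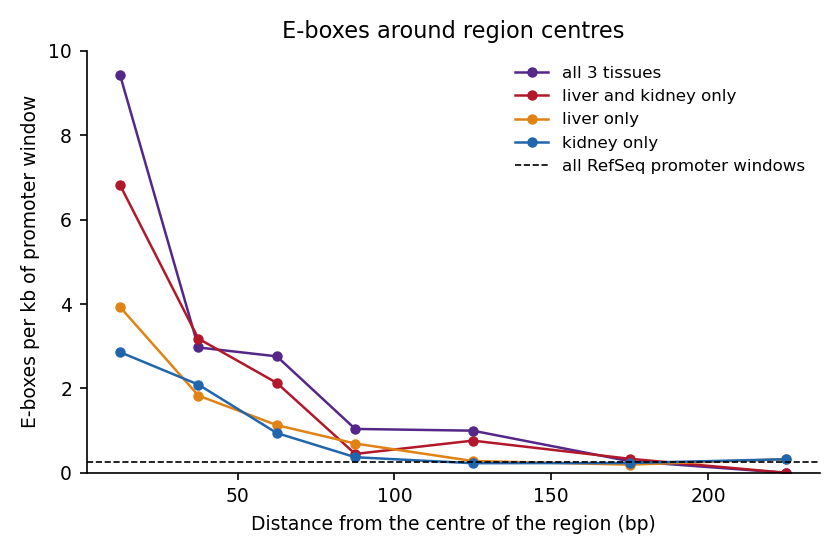
The plot gives the number of CACGTG copies per kb of promoter window (vertical axis) against the distance in bp from the centre of the region, for 4 classes of regions; each point is 1 distance bin and the dashed line is the rate over all RefSeq promoter windows. The liver-and-kidney-only regions reach 6.82 per kb in the innermost bin and lie between the regions of all 3 tissues (9.43) and the single-tissue regions (3.93 in liver and 2.86 in kidney).

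Other short words were counted in the same windows as a description, on both strands. The GC box GGGCGG was in 81.6% of the windows of the liver-and-kidney-only regions and 35.7% of all windows. CCAAT was in 41.4 and 37.4%, and the ETS word CCGGAAG in 16.3 and 8.86%. The E-box variant CACGTT was in 8.79 and 4.68%. CACGNG, which includes CACGTG, was in 86.6 and 27.5%. These shares were not particular to this class. In regions of all 3 tissues, liver-only and kidney-only regions the GC box was in 81.2, 63.9 and 74.4% of windows. There the ETS word was in 17.2, 10.8 and 20.4%, CACGTT in 13.4, 9.24 and 9.95% and CACGNG in 94.6, 71.9 and 73.1%. The HNF4A word CAAAGTCCA was in 0 of the 239 windows and 0.475% of all windows, FOXA's TGTTTAC in 3.35 and 3.65%, and GATA's AGATAA in 5.02 and 11.2%.

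The authors' peak scores, which have no stated scale, chose the regions indirectly and are given as a description within each list. In the liver list the regions scored from 17 to 268 with a median of 58, against 99 for regions found in all 3 tissues and 32 for liver-only peaks. In the kidney list they scored from 14 to 134 with a median of 36, against 76 and 22 for kidney-only peaks. They thus stood between these classes in both lists, as did liver-and-heart-only peaks in liver (median 50) and kidney-and-heart-only peaks in kidney (median 34). Of the 960, 127 (13.2%) were in the top 10% of the liver list and 93 (9.69%) in that of the kidney list. In all, 561 (58.4%) were in the upper 50% of both lists and 165 (17.2%) in the lower 50% of both. Spearman's rho between liver and kidney scores was 0.602 across the 960 regions, which are not independent replicates and come from lists that end at a lowest score.

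**Figure D2:**
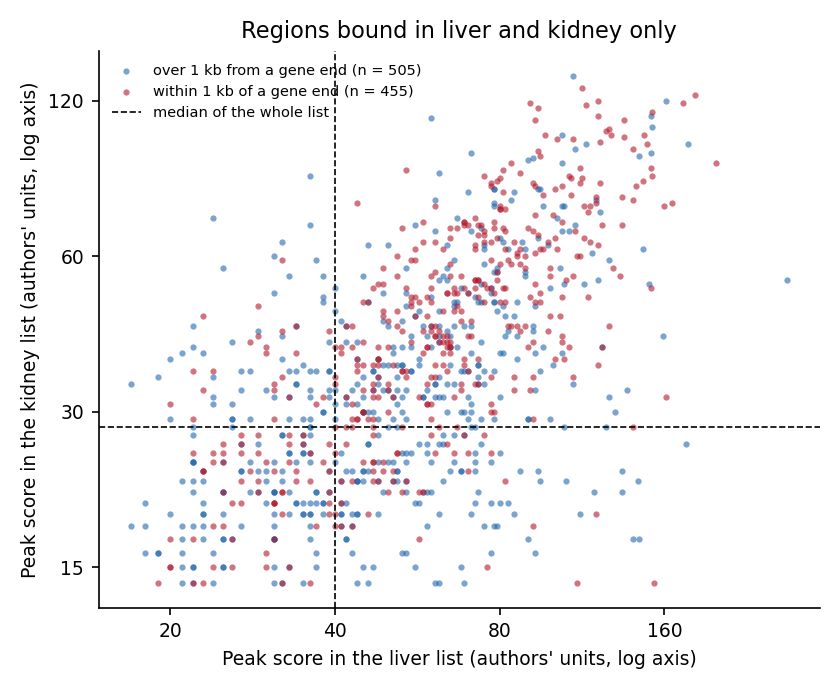
Each point is 1 of the 960 regions, placed by its peak score in the liver list (horizontal, log axis) and in the kidney list (vertical, log axis), both in the authors' units; red points have their centre within 1 kb of a gene end (455) and dashed lines are the medians of the whole lists, 40 and 28. High liver scores tended to go with high kidney scores, and 561 regions lie in the upper 50% of both lists.

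The rule required the liver and kidney peaks of a region to overlap, which limits how far apart they can lie. Their distances are therefore given as a description. The centres of these peaks were a median of 21 bp apart, 564 pairs (58.8%) lay within 25 bp and 19 were over 100 bp apart. In 586 regions (61%) the 188 bp kidney peak lay wholly inside the 242 bp liver peak. In regions found in all 3 tissues the median was 16 bp and 69.7% lay within 25 bp. Among the liver-and-kidney-only regions the 240 with the best mean rank had a median of 16.5 bp, and the 240 with the worst had 26 bp.

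The best mean rank belonged to the region at the start of 1700001L05Rik, 8157 bp from Pacsin2, an endocytosis adaptor (chromosome 15, 83367316 to 83367557), with a score of 182 in liver (rank 69) and 123 in kidney (rank 116). The region at Hdgf followed (chromosome 3, 87905985 to 87906226, scores 173 and 119). Then came a site inside Snx9, a sorting nexin of endocytosis (chromosome 17, 5893173 to 5893414, 161 and 120), 38664 bp from its nearer end. A site at Slc25a39, a mitochondrial glutathione carrier, lay 74 bp from a gene end (chromosome 11, 102408487 to 102408728, 152 and 114). The strong regions thus included both promoters and sites deep inside genes.

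The next ones lay inside 2900026A02Rik (chromosome 5, 113153174 to 113153440, scores 177 and 99), inside Pptc7, a mitochondrial phosphatase (chromosome 5, 122314970 to 122315211, 151 and 112), and inside Ccne2, cyclin E2 (chromosome 4, 11191124 to 11191365, 199 and 91). Others lay 3409 bp from Tmem200b (chromosome 4, 131916454 to 131916695, 152 and 107), at Dvl2 (chromosome 11, 70000413 to 70000654, 147 and 103) and at Srm, spermidine synthase (chromosome 4, 148591261 to 148591537, 149 and 99). Far from protein-coding genes were the sites 49314 bp from Azin1, which restrains antizyme (chromosome 15, 38568486 to 38568727, 135 and 110), and 65889 bp from Tle3, a Groucho corepressor (chromosome 9, 61306326 to 61306567, 151 and 95). Crebrf (chromosome 17, 26715517 to 26715758, 121 and 120), Snx8 (chromosome 5, 140389134 to 140389375, 135 and 102) and Mcm10, a replication factor (chromosome 2, 4996363 to 4996604, 144 and 94), complete the first 15.

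The lists did not always agree on strength. The highest liver score, 268 (rank 15), belonged to a site inside Ripor3, 23493 bp from its nearer end (chromosome 2, 168003543 to 168003784), which ranked 735 in kidney with a score of 54. The highest kidney score, 134 (rank 95), belonged to a site inside Por, the electron donor of cytochrome P450 enzymes (chromosome 5, 135674874 to 135675115), which ranked 371 in liver with a score of 109. Both were named after their values were seen, Por also by its gene list.

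The position of the regions against genes was not used by the rule. A gene end, meaning the start or the stop of a RefSeq gene of any kind, lay no more than 1 kb from the centre in 455 of 960 cases (47.4%, exact 95% interval 44.2 to 50.6%), against 34.2% of all 9005 regions. A further 367 (38.2%) lay inside a gene and farther from its ends, and 138 (14.4%) lay outside genes. The median distance to a gene end was 1184 bp. Measured from RefSeq start sites, 377 of the 942 regions off chromosome 18 (40%) lay within 1 kb and 167 (17.7%) within 100 bp. Only 28 (2.92%) were more than 50 kb from any gene end.

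Of the regions bound in all 3 tissues, 65.1% were at a gene end (338 of 519), 17.7 points more often than the liver-and-kidney-only regions (odds ratio 0.482 for the latter, Fisher's exact test, two-sided, p adjusted over 3 comparisons 1.04e-10). Liver-only regions did so in 22.2% (709 of 3199), 25.2 points less often (odds ratio 3.16, Fisher's exact adjusted p 7.01e-49). Kidney-only regions did so in 38% (885 of 2327), 9.36 points less often (odds ratio 1.47, Fisher's exact adjusted p 8.51e-07). The other pairs of tissues were not compared by a test. Kidney-and-heart-only regions were at a gene end in 58.3% and liver-and-heart-only regions in 45.9%. Scores differed between the classes. Within 5 groups of like kidney score the difference from kidney-only regions was 1.95 points (exact adjusted p 0.351). Within groups of like liver score the difference from liver-only regions was 20.4 points (exact adjusted p 2.38e-27). That from regions of all 3 tissues was -13.8 points by liver score (exact adjusted p 1.08e-06) and was not tested by kidney score. Of the 519 regions of all 3 tissues, 402 were in the top liver group, with scores up to 389 against 268 in the liver-and-kidney-only regions. Scores were thus not fully alike in that group. There 55.5% of liver-and-kidney-only regions were at a gene end, against 64.9% of regions of all 3 tissues. At kidney scores of 42 and more these 2 classes had 62 and 65.5%, and at scores of 30 to 41 they had 44.1 and 65.3%.

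**Figure D3:**
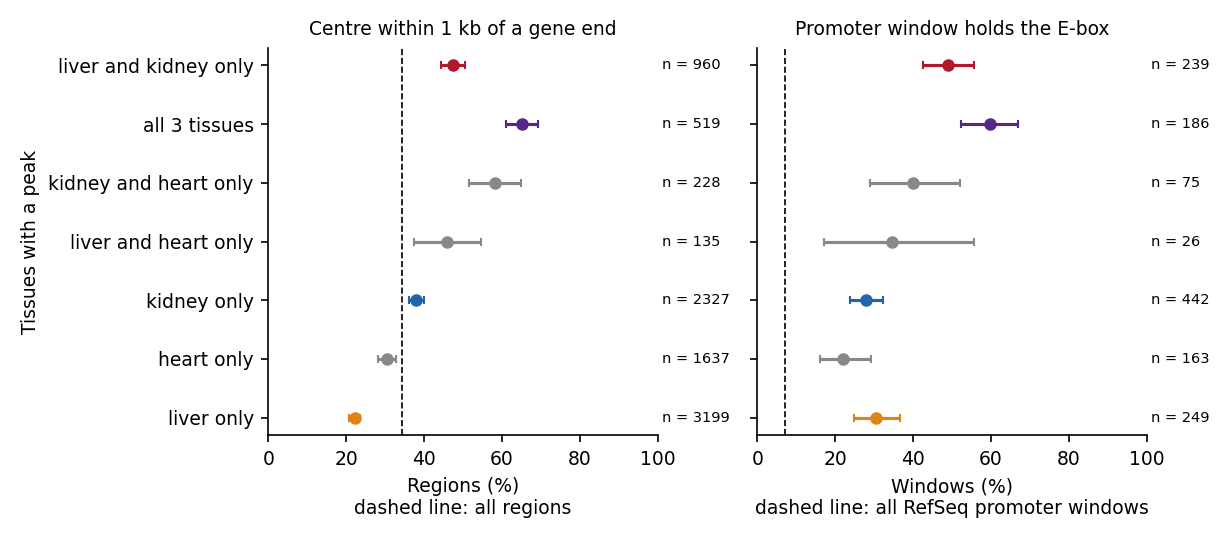
The left panel gives the share of regions whose centre is within 1 kb of a gene end and the right panel the share of promoter windows that hold CACGTG, both in %, for each set of tissues with a peak; points are shares, bars exact 95% intervals, n the number of regions or windows, and dashed lines the share over all 9005 regions (34.2%) and over all RefSeq promoter windows (7.15%). The liver-and-kidney-only regions, at 47.4 and 49%, lie below the regions of all 3 tissues and above the single-tissue regions in both panels. The other pairs of tissues also lie between these in both panels. Kidney-and-heart-only regions are at 58.3 and 40%, and liver-and-heart-only regions at 45.9 and 34.6%.

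The share at gene ends rose with score within the liver-and-kidney-only regions. It was 66.7% in the 240 with the best mean rank and 32.9% in the 240 with the worst. In the liver list it went from 27.8% at scores of 17 to 23 to 55.5% at scores of 63 and more, while liver-only regions went from 15.8 to 26.6%. At kidney scores of 42 and more it was 62%, against 49.8% of kidney-only regions, and at scores of 18 to 22 it was 30%, against 40.1%. Windows with CACGTG also had higher scores, with medians of 72 in liver and 53 in kidney (117 windows) against 56 and 41.5 in the 122 windows without it.

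**Figure D4:**
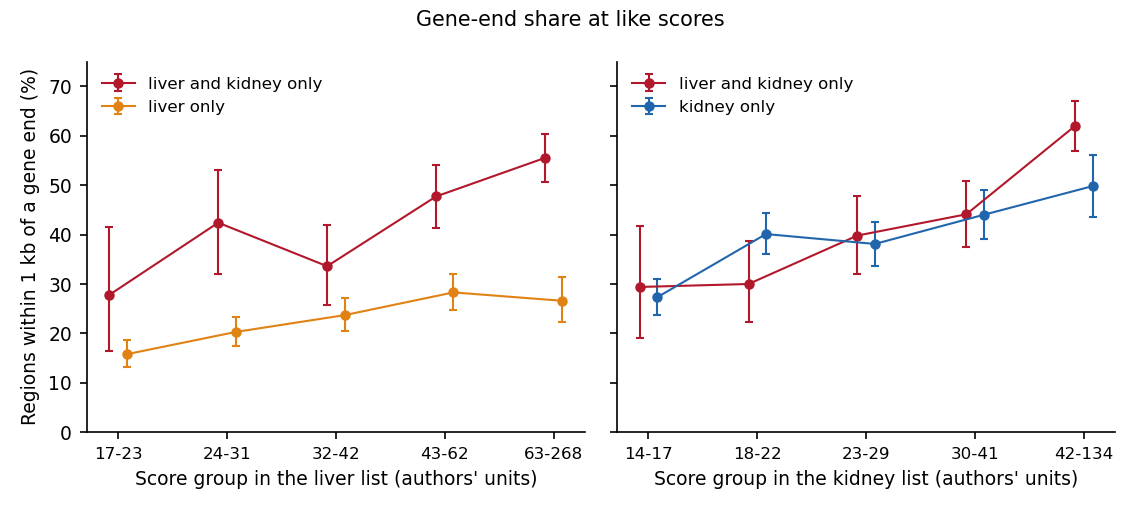
Share of regions within 1 kb of a gene end (%, vertical) in 5 groups of peak score (horizontal, authors' units), for liver-and-kidney-only regions against liver-only regions in the liver list (left) and against kidney-only regions in the kidney list (right); points are shares and bars exact 95% intervals. In the liver list the liver-and-kidney-only regions lie above in every group, and in the kidney list the curves cross, with 30 against 40.1% in the second group and 62 against 49.8% in the last.

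Of 21887 protein-coding genes, 1122 (5.13%) had a liver-and-kidney-only region inside them or within 10 kb, and 837 of the 960 regions (87.2%) lay at such a gene. Of these genes, 1046 had 1 region, 70 had 2 and 6 had 3. No heart peak of any class lay inside or within 10 kb for 900 of the 1122 (80.2%). A heart peak at another site lay near 222 (19.8%), against 11.5% of all protein-coding genes. The genes near the regions had a median length of 24.2 kb, against 17.2 kb for all, and a longer gene can hold more regions.

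The 6 genes with 3 regions were Ppargc1b, Tns1, Zmiz1, Deaf1, Mical3 and Dis3l2. A heart peak lay inside or within 10 kb of Tns1, Zmiz1, Deaf1 and Dis3l2, but not of Ppargc1b or Mical3. Zmiz1 and Dis3l2 also had a region common to all 3 tissues. Ppargc1b encodes PGC-1β, a coactivator of mitochondrial and lipid genes. Its 3 sites, all inside the gene on chromosome 18 between 26676 and 42962 bp from its nearer end, scored 105, 85 and 70 in liver and 75, 80 and 80 in kidney. Tns1, a focal adhesion protein, had sites scoring 88, 39 and 40 in liver and 64, 32 and 31 in kidney. The regions at Dis3l2, an exonuclease, scored 143, 85 and 45 in liver but 22, 19 and 15 in kidney, which put the first at rank 176 in the liver list and 2591 in the kidney list.

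Gene lists were described by the share of their genes with a region inside or within 10 kb, beside the 5.13% of all protein-coding genes. Genes of a list that lie close together can share a region, so the genes are not independent. No test compared these shares between classes. The larger liver-only and kidney-only classes (3199 and 2327 regions) lay at 16 and 14 of 48 genes of nuclear receptors and coactivators. They lay at 27 and 7 of 52 amino acid genes and at 14 and 15 of 42 insulin, IGF and glucose sensing genes. Their shares over all protein-coding genes are not given here.

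The enzymes of gluconeogenesis, fructose and glycogen metabolism had the highest share, 7 of 25 (28%), though only 4 of 25 had a region within 10 kb of a gene end, against 4.45% of all genes by that measure. Inside or within 1 kb of the gene the count was 6 of 25, against 3.56% of all genes. The high share was not particular to this class. Regions common to all 3 tissues lay inside or within 10 kb of 6 of the same 25 genes, against 3.09% of all genes. Tkfc, the triose kinase of fructose breakdown, had a region 76 bp from its end (chromosome 19, 10605425 to 10605666, scores 75 in liver and 86 in kidney), which was also 10 bp from an end of Ddb1 and in its promoter window. Pfkfb3 sets the level of the glycolytic activator fructose bisphosphate and had a site inside the gene (chromosome 2, 11502000 to 11502241, 79 and 56). Gbe1, the glycogen branching enzyme, had 2 sites inside the gene about 1 kb apart, with liver scores of 61 and 60 and kidney scores of 67 and 24. Pcx, pyruvate carboxylase, also had 2, with 67 and 56 in liver and 49 and 46 in kidney. Pck1, which controls the committed step of gluconeogenesis, had a region 348 bp from the gene (chromosome 2, 173152618 to 173152860, 77 and 35) and another 1117 bp away (36 and 19). G6pc, which releases free glucose, had a weak region 2964 bp away (42 and 23). Of the 7 genes, 4 had no heart peak within 10 kb, among them Pck1 and G6pc, against 80.2% of all 1122 genes with a region. Pfkfb3, Gbe1 and Pcx each had a heart peak within 10 kb and a region common to all 3 tissues.

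Nuclear receptors and coactivators had 10 of 48 (20.8%). These are long genes, with a median of 75.7 kb, and 5 of 48 had a region within 10 kb of an end. Hnf4a, a master regulator of hepatocyte and proximal tubule genes, had a site 32088 bp inside the gene (chromosome 2, 163540687 to 163540928, scores 140 in liver and 97 in kidney). Ppara, the receptor that drives fatty acid oxidation, had one 696 bp from a gene end (chromosome 15, 85735497 to 85735743, 152 and 86), in a promoter window without CACGTG. Esrra, a receptor for mitochondrial genes, had one 71 bp from an end (chromosome 19, 6921822 to 6922159, 116 and 73). All of these ranked in the upper 10% of both lists except Esrra in kidney, at rank 418 of 4034. The others included Ppargc1b, Rara, Nr2f2, Nr2f6, Ppargc1a and Ppard, with Ppard weakest (24 and 16).

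Genes of insulin, IGF and glucose sensing had 8 of 42 (19%). Txnip, a glucose-induced inhibitor of thioredoxin, had a region 92 bp from the gene (chromosome 3, 96557741 to 96557982, scores 104 in liver and 82 in kidney). Irs2 had one 48 bp away (chromosome 8, 11008854 to 11009095, 98 and 64) and Irs1 one 102 bp away (chromosome 1, 82291430 to 82291671, 64 and 40). Igfbp4, an IGF carrier, had a site inside the gene (83 and 62). Mlxipl had 2, one of them 104 bp from its end (61 and 42).

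Of 46 genes of fatty acid oxidation and peroxisomes, 7 (15.2%) had a region. Cpt1a, the gatekeeper of mitochondrial fatty acid import, had 2 (chromosome 19, 3389181 to 3389422, scores 82 in liver and 62 in kidney, and 3325452 to 3325696, 65 and 40). The first of these lay 3570 bp outside Cpt1a, in the promoter window of Tesmin, and the second inside Cpt1a. Decr1 and Phyh had sites inside the gene (78 and 29, and 64 and 34). The region counted for Acadvl was the one at the start of Dvl2, 9650 bp away, and the one counted for Acaa1a lay 146 bp from an end of Xylb. Acox2, a peroxisomal oxidase of branched fatty acids, had a weak one 298 bp away (47 and 24).

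Amino acid catabolism and the urea cycle had 7 of 52 (13.5%). Shmt1, which moves one-carbon units between serine and folate, had one of the strongest (chromosome 11, 60811070 to 60811311, scores 160 in liver and 75 in kidney), 71 bp from a gene end. Ass1 had one 116 bp away (chromosome 2, 31470017 to 31470264, 112 and 60). Aldh4a1, an enzyme of proline breakdown, had one inside the gene (73 and 35), as did Sardh, sarcosine dehydrogenase (45 and 55), which ranked higher in kidney (709) than in liver (1997). The region counted for Bckdk lay 8512 bp from it and 97 bp from an end of Vkorc1. None of the 7 genes had a heart peak within 10 kb, which was also true of 80.2% of all 1122 genes with a region. Of all protein-coding genes only 11.5% had one.

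Cytochrome P450 genes and partners had 5 of 34 (14.7%). None of the 5 had a heart peak within 10 kb, like 80.2% of all 1122 genes with a region. Por had a second site inside the gene (chromosome 5, 135707933 to 135708174, scores 65 in liver and 42 in kidney). Alas1, the first enzyme of heme synthesis, had one inside the gene (chromosome 9, 106236264 to 106236505, 70 and 32). Cyp2f2 and Cyp3a13 had weak ones (41 and 20, and 27 and 18). The region counted for Cyp27b1, 8586 bp away, was at the start of Cdk4.

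Organic ion and ABC transporters had 7 of 59 (11.9%). Slc22a4, a carnitine and ergothioneine carrier, ranked 278 in kidney and 1251 in liver with a site inside the gene (chromosome 11, 54004251 to 54004492, scores 62 in liver and 87 in kidney). Slc13a2, a citrate carrier, had one 5533 bp away (64 and 57). Abcc2, the canalicular and tubular export pump, had one 132 bp away (chromosome 19, 43782067 to 43782308, 67 and 28) and another inside the gene. Slc22a6, the renal organic anion carrier, had a weak one (32 and 22). The region counted for Slc16a10, 8261 bp away, was at the start of Mfsd4b1.

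The heat shock, ubiquitin and F-box list had 6 of 47 (12.8%), led by Usp53 (chromosome 3, 122984449 to 122984690, scores 113 in liver and 127 in kidney) and Dnajb9 (84 and 58, 98 bp away). NAD, heme and one-carbon genes had 4 of 44 (9.09%), including Hebp1 (121 and 63). Lipid and cholesterol synthesis and transport had 3 of 50 (6%), which were Lss, the sterol-cyclising enzyme (114 and 65, 8 bp from its end), Dgat2, of triglyceride synthesis (118 and 61), and Insig1, a brake on SREBP processing (64 and 41). Conjugating enzymes had 2 of 50 (4%), Gstt3 (65 and 55, in the promoter window of the neighbouring Ddt) and Papss2 (68 and 23). Transcription factors of liver or kidney epithelium had 2 of 46 (4.35%), Hnf4a and Cebpb (63 and 39).

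Of 50 transcription factor and contractile genes of heart, 0 had a liver-and-kidney-only region inside or within 10 kb (exact 95% interval 0 to 7.11%), against 5.13% of all protein-coding genes. With only the upper 50% of each list kept, the count was 1. Of the same 50 genes, 11 had a heart-only region, against 7.07% of all protein-coding genes. Within 50 kb the count was 2 of 50, against 11.2% of all genes.

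**Figure D5:**
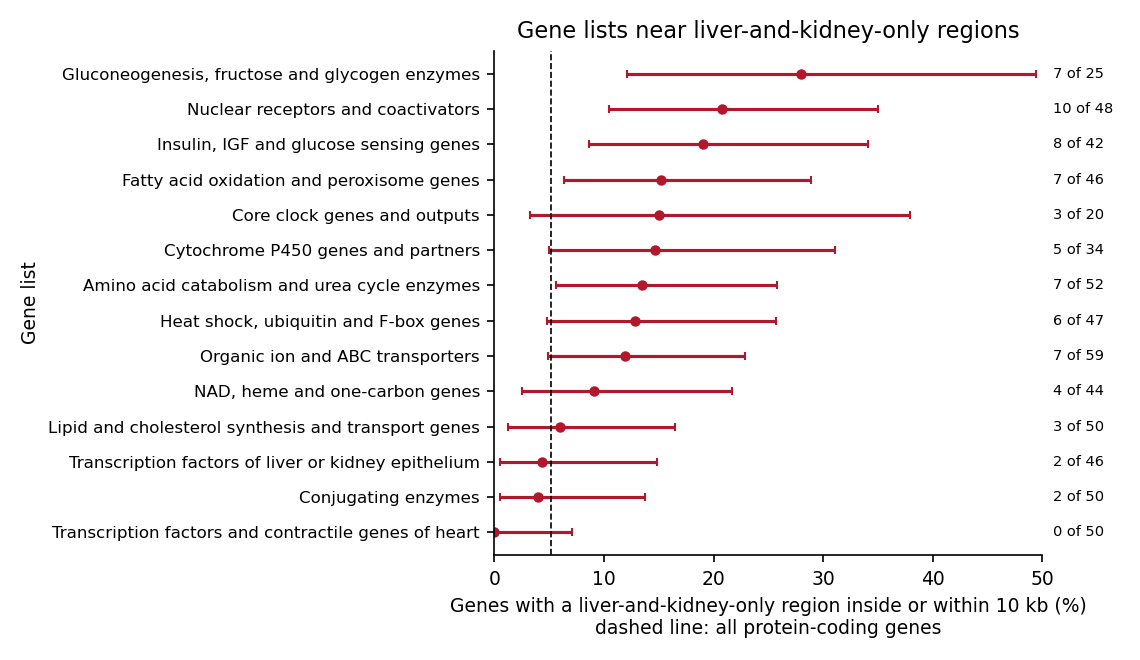
Share of the genes of each list with a liver-and-kidney-only region inside or within 10 kb (%, horizontal); points are shares, bars exact 95% intervals over genes, the counts stand at the right and the dashed line is the 5.13% of all protein-coding genes. Shares run from 0 of 50 for heart genes to 7 of 25 for gluconeogenesis, fructose and glycogen enzymes.

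Clock genes were mostly bound in all 3 tissues. Of 20 clock genes and outputs, 16 had a region common to all 3 tissues inside or within 10 kb, against 3.09% of all protein-coding genes, and 3 (15%) had a liver-and-kidney-only region. Per2, a clock repressor, had one 3583 bp outside the gene (chromosome 1, 91412267 to 91412508, scores 86 in liver and 44 in kidney), inside the neighbouring Hes6, besides 2 common regions. Hlf, an output factor of the PAR bZIP family, had one inside the gene (chromosome 11, 90382405 to 90382646, 81 and 64) besides 3 common regions. Rora, an activator of Arntl, had one 98426 bp inside the gene (chromosome 9, 69289672 to 69289994, 58 and 44) and no common region. No liver-and-kidney-only region lay at Per1, Per3, Cry1, Cry2, Nr1d1, Nr1d2, Dbp, Tef, Nfil3, Bhlhe40, Bhlhe41, Ciart, Wee1, Arntl, Clock or Npas2.

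The regions lay a median of 132 kb from the nearest heart peak. In 550 (57.3%) that peak was over 100 kb away, in 77 (8.02%) within 10 kb and in 25 (2.6%) within 1 kb. At the edge of the rule, the region at Dtymk (chromosome 1, 93801940 to 93802181, scores 34 in liver and 22 in kidney) had a heart peak of score 27 that began 12 bp away. At Idh1 the gap was 45 bp and at Pfkl 103 bp, with a heart peak of score 87 at the latter. Just outside the rule, regions at Arvcf, Ehmt2 and Lonrf1 had heart peaks that overlapped by 4, 17 and 48 bp. The smallest overlaps of a liver with a kidney peak that counted were 18 bp near Oaf, 27 bp at Nr2f6 and 62 bp at Myo10. Liver and kidney peaks that did not overlap touched near Ece1 and were 11 bp apart near Lclat1 and 18 bp apart near Krr1.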

How the data were processed

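The authors deposited 1 peak list per tissue, made per the series' design text from all ChIP and input replicates of that tissue, with 1 whole-number score per peak. The sources used here give neither the scale of the deposited score nor the calling parameters. Per the submitters' processing notes, Bowtie2, SAMtools and HOMER and the build mm10 were used. Whether regions without a heart peak held weaker heart signal was not tested. Scores were ranked within lists only.

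Genes came from a RefSeq table of GRCm38.p6 (49943 genes on chromosomes, 21887 protein-coding), which gives no strand, and promoter windows with strand from a second RefSeq table (32851 windows). Of 615 entries in 14 gene lists, 613 matched a symbol. Intervals of shares are exact (Clopper-Pearson, 95%) and reflect counting error alone. Classes of regions were compared by Fisher's exact test (two-sided) in SciPy 1.17.1, with Benjamini-Hochberg adjustment over 3 comparisons and a threshold of 0.05, and at like scores with an exact conditional test over 5 score groups. The code was tested on simulated data. Some genes of the lists are counted but not reported by name here. The regions, lists and tests were chosen with earlier results of these data known. Named are the 15 regions with the best mean rank, up to 4 genes per list with the best-ranked regions, genes with 3 or more regions, all clock genes, the regions at each edge of the rule, and windows by rank; further list genes and the strongest region of each list were named after their values were seen. Alternatives covered the overlap rule, the peak threshold, the gene window, the gene set, the motif and the score.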

Additional observations from a re-analysis of the deposited data

How the results depend on the processing

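No paired analysis was possible because each list pools the 3 animals of a tissue, and for the same reason no replicate could be left out. The gene-end differences from regions of all 3 tissues (-21.9 to -8.80 points over 9 alternatives) and from liver-only regions (20.4 to 30.8 points over 9) kept their direction and passed the threshold in each. For gene ends, no alternative compared regions of all 3 tissues within groups of like kidney score. By liver score, 402 of the 519 regions of all 3 tissues fell in the top group, where scores were not fully alike. The difference from kidney-only regions kept its direction and passed in 8 of 9, and missed within score groups (1.95 points, exact adjusted p 0.351). The E-box difference from kidney-only regions passed in all 7 alternatives (13.5 to 22 points). That from regions of all 3 tissues missed with a 50% overlap (-9.66 points, exact adjusted p 0.0608), in the upper 50% of each list (-7.56, 0.167), with equally long lists (-7.24, 0.174) and within score groups (-4.73, 0.397). That from liver-only regions missed in the upper 50% (11.9, 0.0619) and within score groups (9.95, 0.0668). Keeping the upper 50% of peaks left 573 regions and 741 genes, equally long lists left 621 regions, and a 50 kb window gave 2451 genes, all by construction. The comparisons of E-boxes within score groups, of start sites, of gene ends with regions of all 3 tissues within liver score groups (-13.8 points) and of genes by their ends alone were chosen after seeing the data. Depth is unknown, so how far a deeper heart list would shorten the set was not tested.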

Other observations

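Genes of the solute carrier family, which move metabolites and ions across membranes, had a liver-and-kidney-only region inside or within 10 kb in 38 of 375 cases (10.1%), against 5.13% of all protein-coding genes. The strongest after Slc25a39 were at Slc20a1, a phosphate carrier (chromosome 2, 129198551 to 129198800, scores 146 in liver and 84 in kidney), Slc35a5 (113 and 85, in the promoter window of the neighbouring Atg3), Slc25a33, a mitochondrial nucleotide carrier (104 and 70), and Slc26a2, a sulfate carrier (102 and 62). Slc6a13, a carrier of GABA and taurine found in liver and kidney, followed with 74 and 69. Of 1110 olfactory receptor genes (Olfr), 0 had such a region (exact 95% interval 0 to 0.332%). These families were chosen after seeing the data.

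Of 1005 miRNA hairpins in the RefSeq table, 36 (3.58%) had a liver-and-kidney-only region within 10 kb, and 29 regions accounted for them. The 5.13% of protein-coding genes is not a like measure, because it also counts regions inside longer gene bodies. A region 1392 bp from Mir17, the first hairpin of the miR-17 cluster, scored 66 in liver and 59 in kidney, one 2539 bp from Mir339 scored 146 and 62, and one 7468 bp from Mir125a scored 102 and 71. On chromosome X, 13 of 66 regions (19.7%) were liver-and-kidney-only, against 6.47 to 12.9% on the autosomes. Chromosome X was named after its value was seen and held far fewer regions than any autosome (278 or more). This difference was not tested.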
